A study of Homo sapiens with 6 samples.

Results

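Integrins are the receptors by which cells hold on to the extracellular matrix, and the proteins of the focal adhesion plaque tie them to actin. The 35 genes described here, of the 57773 Ensembl gene IDs in the deposited table, encode 15 integrin subunits (ITGA1, ITGA2, ITGA3, ITGA4, ITGA5, ITGA6, ITGA7, ITGA10, ITGA11, ITGAV, ITGB1, ITGB3, ITGB4, ITGB5 and ITGB8) and 20 plaque proteins. They were chosen by name, and all 35 were found by mapping the IDs to symbols. The cells were RPE1, an immortalised line of human retinal pigment epithelium in which wild-type p53 can be activated by drugs. Nutlin-3 at 2.5 µM was applied for 24 h in one group of 3 libraries, and the vehicle DMSO alone for 24 h in the other group of 3. Nutlin-3 blocks the binding of MDM2 to p53 and so lets p53 accumulate. The series title gives the finding of p53 target genes as the aim. Poly(A) RNA was sequenced, and all libraries are from 1 cell line.

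An integrin is a pair of 1 alpha and 1 beta subunit, and the alpha subunit largely sets which matrix protein is bound. Talins and kindlins bind the beta tail inside the cell and switch the receptor on. Vinculin, alpha-actinins, filamins and tensins then link it to actin, while focal adhesion kinase and scaffolds such as paxillin and p130Cas pass on signals. In the eye, retinal pigment epithelium rests on a basement membrane of laminin and collagen IV that it holds through integrins.

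The reads recovered from the RPKM came to 32.2 M, 37.0 M and 31.6 M in the Nutlin-3 libraries and 41.1 M, 28.4 M and 31.4 M in the DMSO libraries. CDKN1A, a p53 target that encodes the cell cycle inhibitor p21, had 57.8, 62.0 and 61.8 RPKM in the Nutlin-3 libraries, against 7.88, 8.38 and 8.81 RPKM in the DMSO libraries. Markers of the line were present, with summed levels of the 12 RPE1 and pigment epithelium markers of 507 to 541 RPKM with Nutlin-3 and 500.2 to 551 RPKM with DMSO, of which VIM made up most with 445 ± 15.5 RPKM with Nutlin-3 and 474 ± 24.1 RPKM with DMSO (SD, n = 3 each). Within that list the epithelial keratins KRT18 (1.74-fold), KRT8 (1.68-fold) and KRT7 (1.32-fold) and the cadherin CDH2 (1.28-fold) rose, and OTX2, a pigment epithelium factor, fell to 0.819 of its DMSO mean (adjusted p from 1.25e-04 to 0.0333 by limma). Their part in the results below was not tested. RPE65 and TYR, which define mature pigment epithelium, were near 0 in both groups (0.000959 RPKM with Nutlin-3 and 0.00192 RPKM with DMSO for RPE65). Markers of leukocytes summed to 0.0427 to 0.0649 RPKM with Nutlin-3 and 0.0482 to 0.0723 RPKM with DMSO, and those of fibroblasts to 8.20 to 8.90 RPKM with Nutlin-3 and 5.37 to 6.70 RPKM with DMSO. The fibroblast sum rested on COL1A1 and PDGFRB, with DCN at 0.00899 RPKM with Nutlin-3 and 0.00396 RPKM with DMSO. It moved with the results below, and its part in them was not tested. The 3 markers of neurons and glia summed to 8.92 to 9.27 RPKM with Nutlin-3 and 10.4 to 11.2 RPKM with DMSO. Nearly all of this sum was TUBB3 (9.10 RPKM with Nutlin-3 and 10.8 RPKM with DMSO), while RBFOX3 and GFAP were near 0 in both groups. Markers of endothelium, muscle and other epithelia stayed under 0.1 RPKM in every library. Whether replicates are separate cultures is not in the labels, and p-values therefore cover only the variation among these libraries. Because the deposited RPKM divide by the full span of a gene with its introns, they are compared here within a gene. The marker sums above add such values over genes and so give long genes little weight. Levels of different genes are compared as exon-scaled levels, the recovered reads per kb of merged exon, scaled to the library size as RPKM are.

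Most integrin and plaque genes were higher with Nutlin-3. By limma on log2(RPKM + 0.1), 25 of the 35 rose and 4 fell at an adjusted p under 0.05, and 6 did not pass. Of all 19886 genes tested, 20.9% rose and 18.4% fell, 39.2% in all. The 15 integrin subunits gave 10 rises and 2 falls, and the 20 plaque genes 15 rises and 2 falls. When limma voom was fitted to the recovered reads instead, 26 members rose and 4 fell, against 26.0% and 24.3% of the 20732 genes in that fit, 50.3% in all. The library sizes behind the deposited RPKM were 0.961 to 0.980 times the recovered reads in the Nutlin-3 libraries and 1.03 to 1.05 times in the DMSO libraries. Scaled to total recovered reads, 24 members rose and 4 fell, while of all genes 14.2% rose and 26.8% fell (41.0% in all), so the split of all genes moved with the scaling and ITGA2 was the 1 member call lost. The median log2 fold change of the members was 0.37, with a range of -0.26 to 1.00, and that of all genes tested was 0.0058. The quartiles of the members were 0.081 and 0.49, while those of all genes were -0.20 and 0.20. Among the 12212 genes averaging 0.5 RPKM or more, 28.9% rose and 22.4% fell, 51.3% in all, and of the 31 members in that set 24 rose and 3 fell. PTK2, among these 3 falls, reached that minimum only through the DMSO libraries (0.498 RPKM with Nutlin-3 and 0.591 RPKM with DMSO). Its call in that set is therefore not read. The changes were small in size. At an adjusted p under 0.05, 6 members rose at least 1.5-fold in mean RPKM (ITGA11, TNS1, ITGB4, ITGA10, FLNA and ITGA3), as did 4.24% of all genes. All 3 Nutlin-3 libraries lay above all 3 DMSO libraries for 28 members, against 27.6% of all genes, and below them for 4, against 25.7%. ITGA1, ITGB3 and CAV1 overlapped. In bulk RNA, fewer cells of a type and less RNA per cell cannot be told apart.

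**Figure D1:**
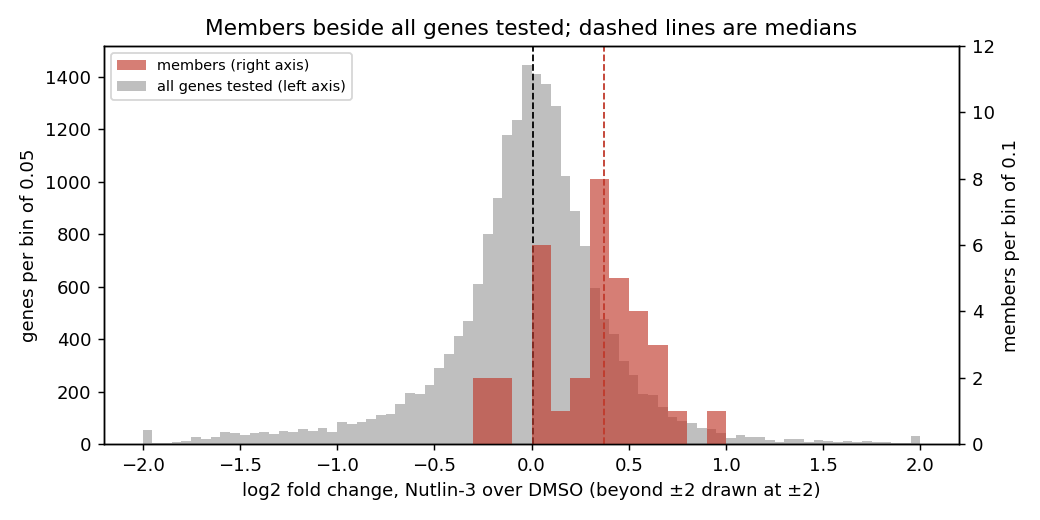
Distribution of the log2 fold change, Nutlin-3 over DMSO, for the 35 members (red, right axis) and for all 19886 genes tested (grey, left axis). The median of the members is 0.37 and that of all genes 0.0058, and the lowest member, TLN2, stands at -0.26.

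**Figure D2:**
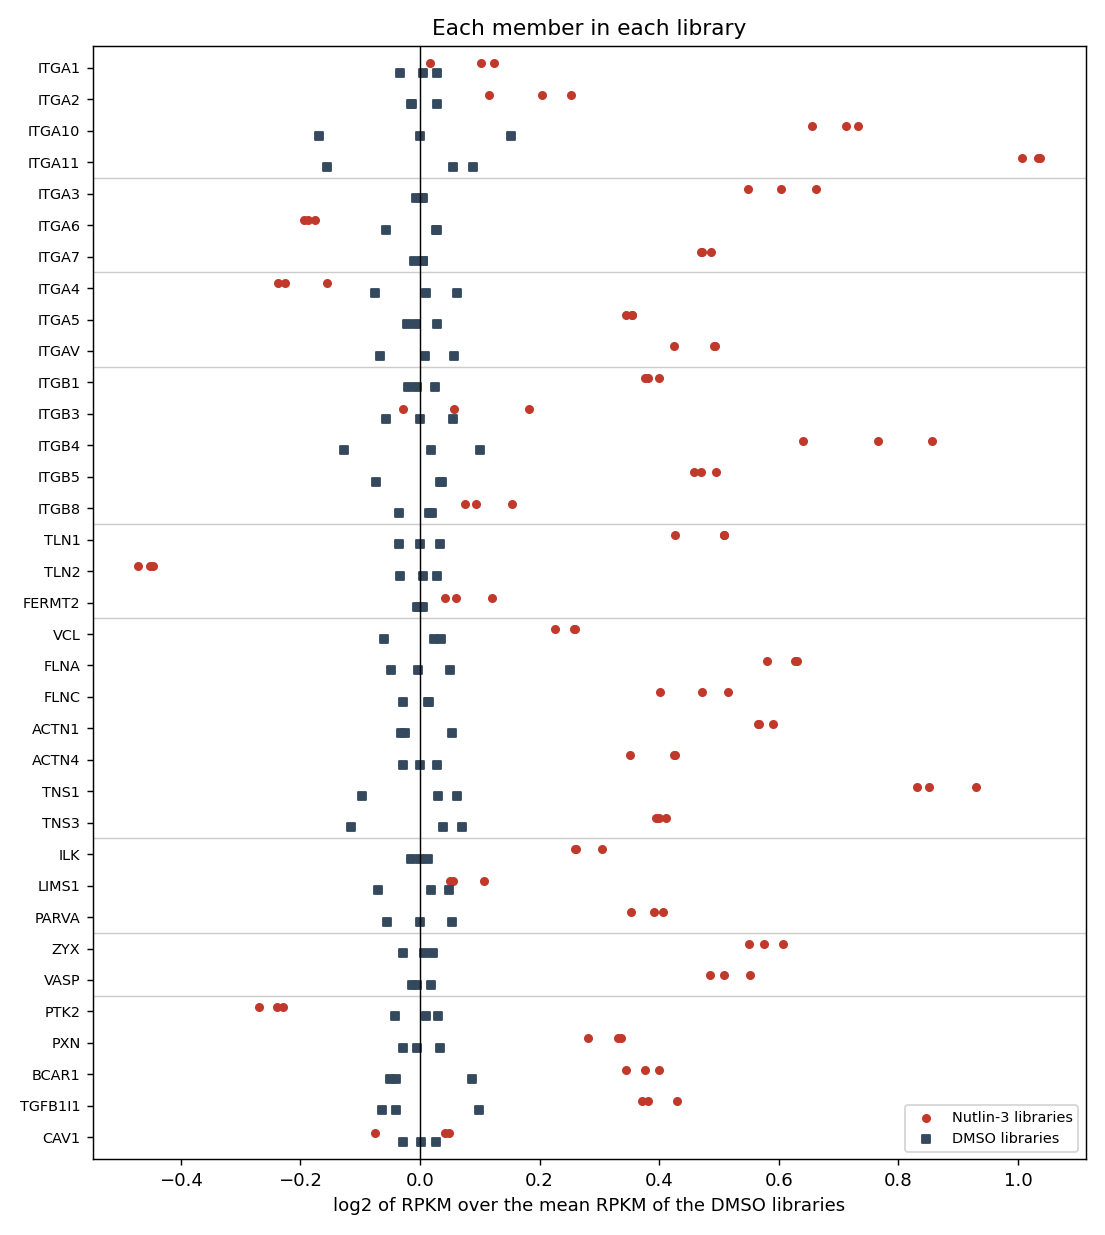
Log2 of the RPKM of each member in each library over the mean RPKM of its DMSO libraries, with members grouped by role between grey lines. The 3 Nutlin-3 libraries (red circles) stand right of the 3 DMSO libraries (dark squares) for 28 members and left of them for ITGA6, ITGA4, TLN2 and PTK2.

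The sequences around the start of 3 genes with large rises are shown because members that moved together can be compared for shared motifs. They span 250 bases before to 50 bases after the RefSeq start, on the strand of the gene, in build GRCh38.p14, and each of these genes has a single start in the table. Capitals mark a CArG box, the motif of the actin-responsive factor SRF, a p53 half-site, an AP-1 site (TGANTCA) or the TEAD motif GGAATG, searched on both strands. The first is ITGA11 at chr15:68432114-68432413, the second ITGA10 at chr1:145910001-145910300 and the third FLNA at chrX:154374585-154374884, all on the minus strand.
ITGA11: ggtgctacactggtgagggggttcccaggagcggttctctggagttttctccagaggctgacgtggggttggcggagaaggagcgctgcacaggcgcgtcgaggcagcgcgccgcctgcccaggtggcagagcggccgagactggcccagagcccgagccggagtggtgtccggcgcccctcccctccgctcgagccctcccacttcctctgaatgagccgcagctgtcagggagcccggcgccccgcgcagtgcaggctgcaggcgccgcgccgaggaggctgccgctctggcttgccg
ITGA10: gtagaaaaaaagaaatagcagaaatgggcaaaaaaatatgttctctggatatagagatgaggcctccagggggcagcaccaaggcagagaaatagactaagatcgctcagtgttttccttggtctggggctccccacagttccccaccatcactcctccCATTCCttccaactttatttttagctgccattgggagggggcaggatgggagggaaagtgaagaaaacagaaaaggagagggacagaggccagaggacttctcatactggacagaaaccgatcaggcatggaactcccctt
FLNA: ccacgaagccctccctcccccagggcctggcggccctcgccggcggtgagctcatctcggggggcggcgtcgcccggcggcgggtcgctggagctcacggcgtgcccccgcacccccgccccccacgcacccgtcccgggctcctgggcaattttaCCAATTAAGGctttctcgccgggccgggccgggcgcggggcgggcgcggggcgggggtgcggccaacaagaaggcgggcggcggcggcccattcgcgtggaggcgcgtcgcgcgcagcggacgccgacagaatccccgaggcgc
The ITGA11 window holds none of these 4 motifs. The ITGA10 window holds GGAATG on the opposite strand, printed as its reverse complement, beginning 91 bases before the start. The FLNA window holds a CArG box that begins 94 bases before the start. RefSeq had promoters for 29 of the 35 members, with 56 starts between them, and ITGA3, ITGA7, ITGB3, ITGB4, PARVA and PTK2 had none in the table. A CArG box stood in 3 of the 56 windows, those of ACTN1, TGFB1I1 and FLNA, and in 1.29% of all 35116 windows. GGAATG stood in 9 of the 56, from 8 genes, and in 14.03% of all windows. A p53 half-site stood in 2 of the 56 (TNS3 and ACTN4) and in 6.63% of all. The AP-1 site stood in 4 of the 56 and in 7.71% of all. A match is a run of letters and not a shown binding site.

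Of the 4 collagen-binding alpha subunits, ITGA11, ITGA10 and ITGA2 rose. ITGA11 (ENSG00000137809), the receptor subunit for fibrillar collagen typical of mesenchymal cells, had 4.38, 4.37 and 4.29 RPKM in the Nutlin-3 libraries, against 1.92, 2.22 and 2.27 RPKM in the DMSO libraries. The groups were far apart, with the lowest of the DMSO values in replicate 1. ITGA11 had the largest change of all members, 2.04-fold, at 1.00 on the log2 scale (SE 0.0670, adjusted p = 3.88e-04 by limma). ITGA10, best known from cartilage, had 1.11, 1.07 and 1.13 RPKM in the Nutlin-3 libraries, against 0.603, 0.753 and 0.678 RPKM in the DMSO libraries. All 3 Nutlin-3 values stood above 1 RPKM, and none of the DMSO values did (log2 fold change 0.63, adjusted p = 0.00234). ITGA2, which with ITGB1 forms the collagen receptor of platelets and epithelia, had 0.588, 0.609 and 0.553 RPKM in the Nutlin-3 libraries, against 0.506, 0.506 and 0.521 RPKM in the DMSO libraries. The groups did not overlap, but the rise of 0.16 (adjusted p = 0.0275) lost its call without any 1 library other than Nutlin-3 replicate 3, with adjusted p from 0.0580 to 0.0827, and without the filter on low genes (adjusted p = 0.0587) or scaled to total recovered reads (0.079 on the log2 scale, adjusted p = 0.202). In the fit to reads it passed (voom adjusted p = 6.24e-04). ITGA1, the collagen IV receptor subunit, had 0.344, 0.349 and 0.325 RPKM in the Nutlin-3 libraries, against 0.322, 0.313 and 0.327 RPKM in the DMSO libraries. Its groups overlapped, and the 95% interval of its change ran from -0.041 to 0.16 on the log2 scale (adjusted p = 0.291).

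Among laminin-binding subunits, ITGA3 and ITGA7 rose and ITGA6 fell. ITGA3 (ENSG00000005884), which binds laminins of basement membranes, had 63.9, 66.4 and 69.2 RPKM in the Nutlin-3 libraries, against 43.5, 43.8 and 43.8 RPKM in the DMSO libraries. The rise of 0.60 (SE 0.0334, adjusted p = 2.32e-04 by limma) was many times the spread inside either group. ITGA7, the main laminin receptor subunit of muscle, had 7.21, 7.14 and 7.13 RPKM in the Nutlin-3 libraries, against 5.17, 5.17 and 5.11 RPKM in the DMSO libraries. Within each group its values differed by little, and the rise was 0.47 (adjusted p = 1.37e-04). ITGA6, which pairs with ITGB1 or, in hemidesmosomes, with ITGB4, had 1.00, 0.997 and 1.01 RPKM in the Nutlin-3 libraries, against 1.16, 1.10 and 1.16 RPKM in the DMSO libraries. Here the Nutlin-3 libraries were the lower ones, without overlap, and the change was -0.17 (adjusted p = 0.0101). Ratios between related members were chosen after their values were seen and are given without a test. The exon-scaled ratio of ITGA3 to ITGA6 was 18.6, 19.4 and 19.9 in the Nutlin-3 libraries and 10.9, 11.6 and 10.96 in the DMSO libraries. As ITGA3 was higher and ITGA6 lower without overlap, this ratio had to separate the groups and adds no further evidence. The same holds for the ratios of ITGA5 to ITGA4 and of TLN1 to TLN2 below.

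Of the subunits that bind fibronectin or the RGD motif, ITGAV and ITGA5 rose and ITGA4 fell. ITGAV, the partner of several beta subunits in receptors for vitronectin and latent TGF-beta, had 5.01, 5.01 and 4.78 RPKM in the Nutlin-3 libraries, against 3.40, 3.58 and 3.70 RPKM in the DMSO libraries. ITGA5 (ENSG00000161638), which with ITGB1 makes the classical fibronectin receptor, had 49.99, 49.7 and 50 RPKM in the Nutlin-3 libraries, against 38.5, 39.9 and 38.9 RPKM in the DMSO libraries. Both were higher in all Nutlin-3 libraries, by 0.46 (adjusted p = 9.10e-04 by limma) and 0.35 (adjusted p = 3.09e-04) on the log2 scale. ITGA4, which binds fibronectin and VCAM1 and is best known from leukocytes, had 0.653, 0.686 and 0.647 RPKM in the Nutlin-3 libraries, against 0.768, 0.725 and 0.797 RPKM in the DMSO libraries. The Nutlin-3 libraries were lower without overlap, and the change was -0.18 (adjusted p = 0.0238). That call was lost without any 1 of Nutlin-3 replicates 1 and 3 and DMSO replicates 1 and 3 (adjusted p from 0.0635 to 0.0769) and under quantile normalization (adjusted p = 0.0521). In the fit to reads ITGA4 fell (voom adjusted p = 4.13e-04). The exon-scaled ratio of ITGA5 to ITGA4 was 24.5, 23.1 and 24.7 in the Nutlin-3 libraries and 16.0, 17.6 and 15.6 in the DMSO libraries.

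Of the 5 beta subunits 3 rose, and the other two did not pass. ITGB1 (ENSG00000150093), the shared partner of most alpha subunits here, had 29.7, 30.2 and 29.8 RPKM in the Nutlin-3 libraries, against 22.8, 22.6 and 23.3 RPKM in the DMSO libraries. The values were tight in both groups, and the rise was 0.38 (SE 0.0220, adjusted p = 2.52e-04 by limma). ITGB5, which pairs with ITGAV, had 4.16, 4.20 and 4.27 RPKM in the Nutlin-3 libraries, against 2.88, 3.10 and 3.11 RPKM in the DMSO libraries, a rise of 0.46 (adjusted p = 6.88e-04). ITGB4, the hemidesmosome subunit, was scarce, with 292 to 557 reads per library, and had 0.390, 0.426 and 0.454 RPKM in the Nutlin-3 libraries, against 0.230, 0.269 and 0.254 RPKM in the DMSO libraries. It still rose 1.69-fold with no overlap (0.58, adjusted p = 0.00223), and by 0.77 in the fit to reads, which adds no 0.1 RPKM to a low value. Its partner ITGA6 moved the other way. ITGB8, which with ITGAV activates TGF-beta, had 0.717, 0.687 and 0.679 RPKM in the Nutlin-3 libraries, against 0.629, 0.651 and 0.653 RPKM in the DMSO libraries. The groups lay close but apart, and ITGB8 did not pass on RPKM (0.094, adjusted p = 0.0718) but passed upwards with quantile normalization (adjusted p = 0.0239) and in the fit to reads (voom adjusted p = 0.0299). ITGB3, the beta subunit of the platelet fibrinogen receptor and of the vitronectin receptor, had 0.132 ± 0.00983 RPKM with Nutlin-3 and 0.126 ± 0.00484 RPKM with DMSO (SD, n = 3 each). Its groups overlapped, with a 95% interval of -0.14 to 0.23 (adjusted p = 0.707), and 51.6% of its exon length is shared with another gene on the same strand, so its reads are uncertain.

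**Figure D3:**
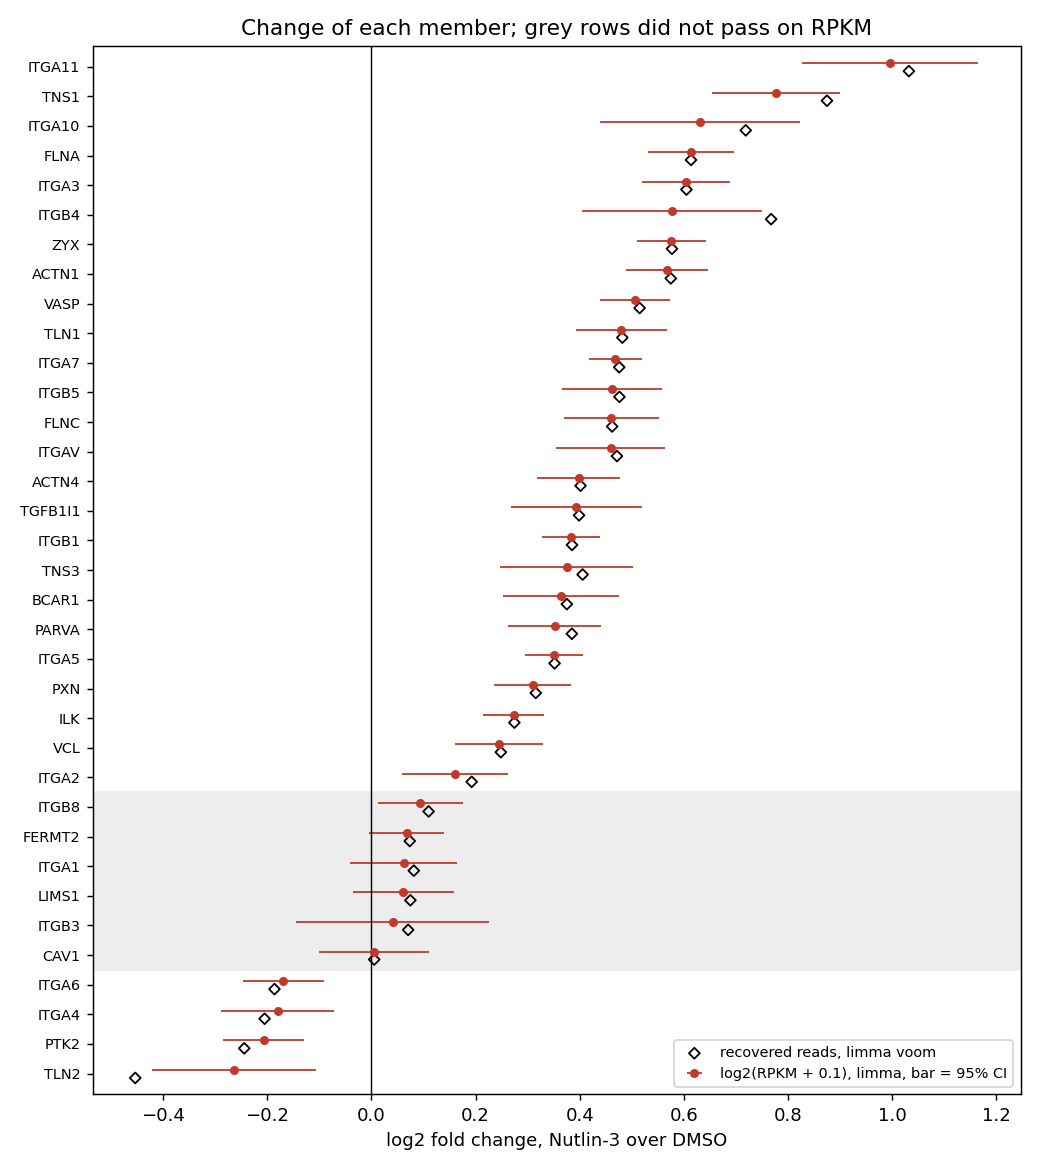
Log2 fold change, Nutlin-3 over DMSO, of each member from limma on log2(RPKM + 0.1) (red points, bars are 95% confidence intervals) and from limma voom on recovered reads (open diamonds). The 6 grey rows did not pass on RPKM, and ITGB4 and TLN2, both low in RPKM, changed more on the reads than on RPKM.

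Compared per exon length, 2 alpha subunits made up most of the alpha pool. The summed level of the 10 alpha subunits was 569 ± 6.95 on the exon-scaled level with Nutlin-3 and 402 ± 5.95 with DMSO (SD, n = 3 each). ITGA3 led with 234 ± 9.21 with Nutlin-3 and 154 ± 0.637 with DMSO, followed by ITGA5 with 159 ± 0.590 with Nutlin-3 and 125 ± 2.25 with DMSO. ITGAV came next with 54.6 ± 1.47 with Nutlin-3 and 39.4 ± 1.69 with DMSO. In DMSO libraries ITGA11 at 25.6 ± 2.29 and ITGA7 at 25.4 ± 0.158 did not differ beyond their spread, whereas in Nutlin-3 libraries ITGA11 at 52.2 ± 0.585 stood above ITGA7 at 35.4 ± 0.211 and close to ITGAV. ITGA6, ITGA4 and ITGA2 followed at levels between 6.62 and 12.1 with Nutlin-3 and between 6.81 and 13.8 with DMSO. ITGA10 and ITGA1 were lowest, with ITGA10 at 3.31 ± 0.0909 and ITGA1 at 3.13 ± 0.120 in Nutlin-3 libraries, values close to each other, and ITGA10 at 2.04 ± 0.225 below ITGA1 at 2.96 ± 0.0650 in DMSO libraries.

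As shares of the alpha sum, ITGA11 held 9.19% ± 0.210 with Nutlin-3 and 6.37% ± 0.480 with DMSO and ITGA3 held 41.2% ± 1.12 with Nutlin-3 and 38.2% ± 0.413 with DMSO (SD, n = 3 each). The share of ITGA5 was 28.0% ± 0.363 with Nutlin-3 and 31.0% ± 0.390 with DMSO, although its own RPKM rose. ITGA6 held 2.13% ± 0.0207 with Nutlin-3 and 3.43% ± 0.146 with DMSO and ITGA4 held 1.16% ± 0.0398 with Nutlin-3 and 1.90% ± 0.0969 with DMSO. For these 5 genes the libraries of the groups did not overlap, nor did they for ITGA10 (higher with Nutlin-3), ITGA1 and ITGA2 (both lower). ITGA2 held 1.37% ± 0.0762 with Nutlin-3 and 1.69% ± 0.0266 with DMSO, although its own RPKM was called up. Shares of the same sum depend on each other, and their differences were not tested. ITGAV and ITGA7 held near-equal shares in both groups, with ITGAV at 9.60% ± 0.361 with Nutlin-3 and 9.79% ± 0.294 with DMSO. Of the beta sum, ITGB1 held 84.0% ± 0.188 with Nutlin-3 and 84.6% ± 0.527 with DMSO and ITGB5 14.6% ± 0.194 with Nutlin-3 and 13.8% ± 0.503 with DMSO, and ITGB8, ITGB3 and ITGB4 each held a small remainder in every library. Exon lengths came from GENCODE 29 with all isoforms merged, so levels of genes with long, rarely used exons are understated, while changes within a gene are not touched.

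**Figure D4:**
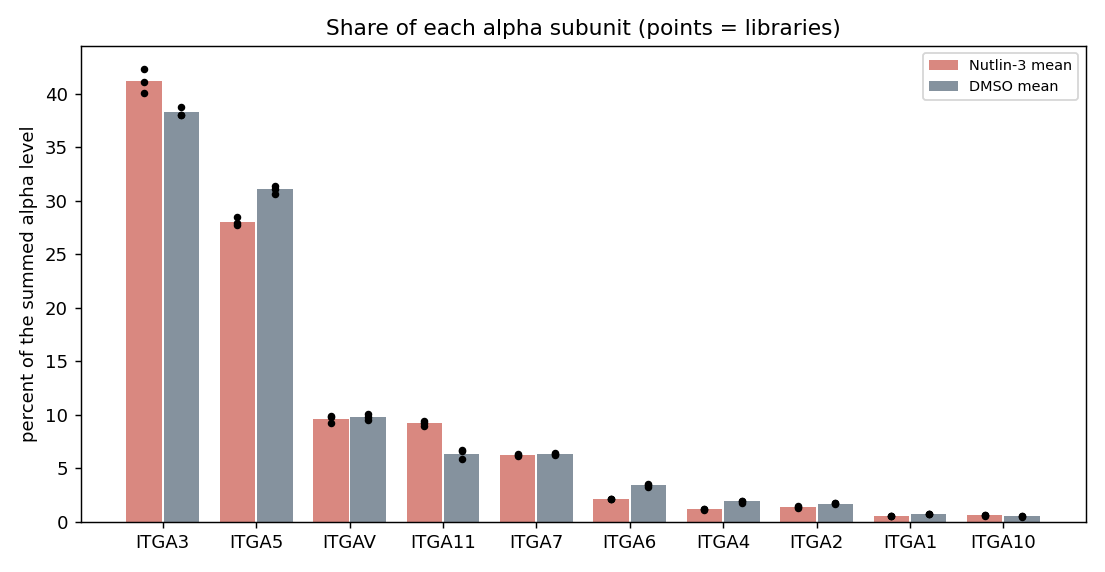
Share of each alpha subunit in the summed exon-scaled level of the 10 alpha subunits, in percent, as group means (bars) and single libraries (points). ITGA11 held 9.19% with Nutlin-3 and 6.37% with DMSO, and ITGA6 held 2.13% with Nutlin-3 and 3.43% with DMSO.

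The integrin activators split. TLN1 (ENSG00000137076), the talin of most cells, had 35.4, 37.5 and 37.5 RPKM in the Nutlin-3 libraries, against 25.7, 26.4 and 27.0 RPKM in the DMSO libraries. TLN2, its relative with highest levels in muscle and brain, had 0.118, 0.119 and 0.117 RPKM in the Nutlin-3 libraries, against 0.158, 0.165 and 0.162 RPKM in the DMSO libraries. TLN1 was higher and TLN2 lower in all 3 Nutlin-3 libraries, with log2 changes of 0.48 (adjusted p = 4.76e-04 by limma) and -0.26 (adjusted p = 0.0228). In the fit to reads TLN2 fell by 0.45 on the log2 scale (voom adjusted p = 9.34e-10), a larger change than on RPKM, where its values are close to the pseudocount. Its call on RPKM was lost without any 1 of the 6 libraries (adjusted p from 0.0504 to 0.0717) and under quantile normalization (adjusted p = 0.0600). The exon-scaled ratio of TLN1 to TLN2 was 37.6, 39.7 and 40.4 in the Nutlin-3 libraries and 20.5, 20.1 and 20.9 in the DMSO libraries. Kindlin-2, encoded by FERMT2, had 1.14, 1.16 and 1.21 RPKM in the Nutlin-3 libraries, against 1.11, 1.11 and 1.11 RPKM in the DMSO libraries. The Nutlin-3 values were all slightly higher, but FERMT2 did not pass (0.068, 95% interval -0.004 to 0.14, adjusted p = 0.121), except under quantile normalization (adjusted p = 0.0450).

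All 7 actin linkers and crosslinkers rose. TNS1, a tensin of mature fibrillar adhesions, had 1.16, 1.10 and 1.08 RPKM in the Nutlin-3 libraries, against 0.567, 0.634 and 0.620 RPKM in the DMSO libraries. FLNA (ENSG00000196924), the filamin that crosslinks actin into networks and binds beta tails, had 211, 218 and 218 RPKM in the Nutlin-3 libraries, against 136, 141 and 146 RPKM in the DMSO libraries. ACTN1, the alpha-actinin that bundles actin at adhesions, had 10.5, 10.6 and 10.5 RPKM in the Nutlin-3 libraries, against 6.92, 6.95 and 7.34 RPKM in the DMSO libraries. In each of these 3 genes the lowest Nutlin-3 value was above the highest DMSO value, and the log2 changes were 0.78 for TNS1 (SE 0.0487, adjusted p = 3.18e-04 by limma), 0.61 for FLNA (adjusted p = 2.09e-04) and 0.57 for ACTN1 (adjusted p = 2.25e-04). The other 4, without overlap either, rose by 0.24 to 0.46. FLNC, the muscle filamin, averaged 32.3 ± 1.29 RPKM with Nutlin-3 and 23.5 ± 0.403 RPKM with DMSO. ACTN4, the second non-muscle alpha-actinin, averaged 17.0 ± 0.496 RPKM with Nutlin-3 and 12.9 ± 0.257 RPKM with DMSO, and TNS3 averaged 1.51 ± 0.00912 RPKM with Nutlin-3 and 1.14 ± 0.0769 RPKM with DMSO. VCL, vinculin, which reinforces talin under tension, averaged 9.53 ± 0.123 RPKM with Nutlin-3 and 8.03 ± 0.286 RPKM with DMSO (SD, n = 3 each). The exon-scaled ratio of TNS1 to TNS3 was 0.368, 0.346 and 0.345 in the Nutlin-3 libraries and 0.258, 0.259 and 0.248 in the DMSO libraries. That of ACTN1 to ACTN4 was 0.458, 0.444 and 0.436 in the Nutlin-3 libraries and 0.395, 0.389 and 0.403 in the DMSO libraries. FLNA and ITGB1 were the most abundant members per exon length. FLNA had an exon-scaled level of 532 ± 10.3 with Nutlin-3 and 348 ± 11.8 with DMSO, and ITGB1 one of 525 ± 4.45 with Nutlin-3 and 402 ± 6.36 with DMSO, so that they did not differ beyond their spread in Nutlin-3 libraries and ITGB1 stood higher in DMSO libraries. VCL shares 11.1% and ACTN4 14.2% of the exon length with genes on the opposite strand, and the sources used here do not say whether counting used strand.

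**Figure D5:**
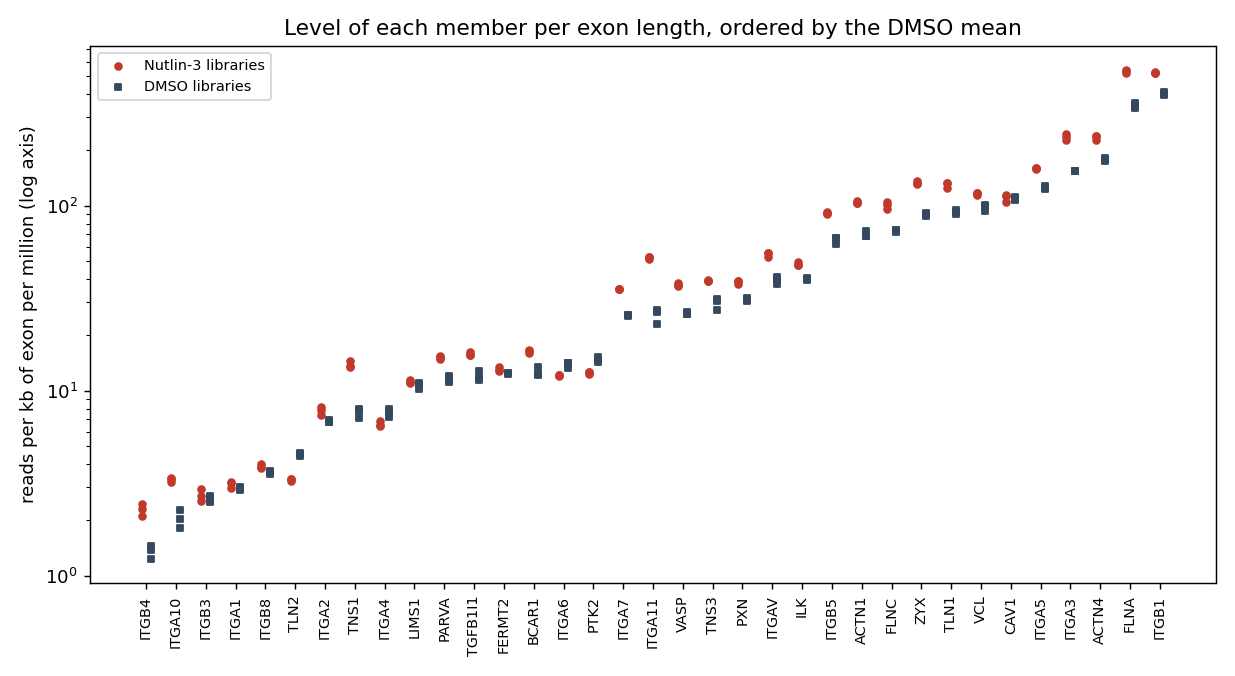
Level of each member in each library on the exon-scaled level (recovered reads per kb of exon, scaled to library size), on a log axis, ordered by the mean of the DMSO libraries. ITGB1 and FLNA stand highest, with DMSO means of 402 and 348, and ITGB4 stands lowest, with a DMSO mean of 1.35.

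The complex of ILK, PINCH and parvin, which couples beta tails to actin, rose in 2 of its 3 members. PARVA, alpha-parvin, had 1.23, 1.28 and 1.27 RPKM in the Nutlin-3 libraries, against 0.929, 0.967 and 1.00 RPKM in the DMSO libraries. ILK, the pseudokinase at its centre, had 23.4, 24.1 and 23.3 RPKM in the Nutlin-3 libraries, against 19.7, 19.3 and 19.5 RPKM in the DMSO libraries. Both were higher in all Nutlin-3 libraries, by 0.35 (adjusted p = 0.00130 by limma) and 0.27 (adjusted p = 8.07e-04). ILK shares 78.5% of its exon length with TAF10 and other genes on the opposite strand, so its value is uncertain if strand was not used. LIMS1, which encodes PINCH1, had 0.563, 0.584 and 0.561 RPKM in the Nutlin-3 libraries, against 0.516, 0.549 and 0.561 RPKM in the DMSO libraries. Here the lowest Nutlin-3 value and the highest DMSO value all but met, and LIMS1 did not pass (0.061, 95% interval -0.036 to 0.16, adjusted p = 0.273). ZYX, zyxin, which gathers at stretched actin fibres, had 45.4, 46.2 and 47.2 RPKM in the Nutlin-3 libraries, against 31.2, 30.4 and 31.5 RPKM in the DMSO libraries. VASP, an actin polymerase that zyxin recruits, had 6.46, 6.56 and 6.76 RPKM in the Nutlin-3 libraries, against 4.57, 4.59 and 4.67 RPKM in the DMSO libraries. Neither overlapped, and the rises were 0.58 (SE 0.0261, adjusted p = 1.50e-04) and 0.51 (adjusted p = 2.06e-04).

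Of the signalling proteins and scaffolds, 3 rose and 1 fell. TGFB1I1, which encodes Hic-5, had 13.2, 13.7 and 13.2 RPKM in the Nutlin-3 libraries, against 9.73, 9.89 and 10.9 RPKM in the DMSO libraries. BCAR1, which encodes the docking protein p130Cas, had 3.86, 3.77 and 3.92 RPKM in the Nutlin-3 libraries, against 2.89, 2.87 and 3.15 RPKM in the DMSO libraries. PXN, paxillin, had 5.07, 5.25 and 5.28 RPKM in the Nutlin-3 libraries, against 4.27, 4.16 and 4.10 RPKM in the DMSO libraries. None of the 3 overlapped, and the rises were 0.39 (adjusted p = 0.00280 by limma), 0.36 (adjusted p = 0.00243) and 0.31 (adjusted p = 0.00105). PXN shares 12.4% of its exon length with genes on the opposite strand and BCAR1 8.59% with a gene on the same strand, which makes their reads less certain. PTK2, which encodes focal adhesion kinase, had 0.504, 0.5004 and 0.490 RPKM in the Nutlin-3 libraries, against 0.574, 0.595 and 0.603 RPKM in the DMSO libraries. The kinase gene was lower in all Nutlin-3 libraries, with a change of -0.21 (SE 0.0308, adjusted p = 0.00483), while the genes for its scaffolds paxillin and p130Cas were higher. CAV1, caveolin-1, which links caveolae to adhesion signalling, had 11.7, 12.7 and 12.7 RPKM in the Nutlin-3 libraries, against 12.3, 12.1 and 12.5 RPKM in the DMSO libraries. Nutlin-3 replicate 1 was lowest of the 6 libraries and the other two Nutlin-3 values were highest, and the change was 0.005 with a 95% interval of -0.10 to 0.11 (adjusted p = 0.939).

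Other genes of the adhesion machinery were read from lists that, like the members, were chosen with earlier results of these data known, against the same background of 20.9% rising and 18.4% falling. Of 11 other integrin subunits, ITGAE was the 1 gene that reached 0.1 RPKM on average, and it did not pass (0.257 ± 0.00844 RPKM with Nutlin-3 and 0.261 ± 0.00899 RPKM with DMSO, adjusted p = 0.830 by limma, and 0 of 1 at an unadjusted p under 0.05). The fit to reads tested 7 of them and ITGAX, a leukocyte subunit at 0.0205 ± 0.00158 RPKM with Nutlin-3 and 0.0120 ± 0.000835 RPKM with DMSO, named for its call there, rose (voom adjusted p = 0.0254). ITGAX had only 10 to 22 reads per library, close to the minimum mean of 10 reads in that fit, so its call is uncertain. Of 31 tested genes among 37 other plaque and actin linker proteins, 19 rose and 1 fell, and the median change was 0.19 on the log2 scale. The list is broader than its name. It also holds HSPG2, which encodes a matrix proteoglycan and not a plaque or actin linker protein, and counts it among the 19. The membrane or caveolar proteins CD151, SDC4, LAYN and CAVIN1 are counted among the 19 as well. The largest rises were those of LIMS2, which encodes PINCH2, with 0.477 ± 0.0104 RPKM with Nutlin-3 and 0.181 ± 0.0291 RPKM with DMSO, of HSPG2, the basement membrane proteoglycan perlecan, with 2.80 ± 0.0367 RPKM with Nutlin-3 and 1.66 ± 0.145 RPKM with DMSO, and of FHL2, a LIM protein of adhesions, with 3.94 ± 0.0261 RPKM with Nutlin-3 and 2.37 ± 0.0692 RPKM with DMSO (SD, n = 3 each). The log2 changes were 1.04, 0.73 and 0.71 (adjusted p = 6.05e-04, 8.93e-04 and 1.30e-04). KANK2, which binds talin and uncouples it from actin, fell to 5.14 RPKM with Nutlin-3, against 6.19 RPKM with DMSO (adjusted p = 0.00362).

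Genes for adhesion signalling were called about as often as all genes. Of 33 tested among 36, 7 rose and 8 fell, near the 20.9% and 18.4% of all genes, and the median change was -0.014 on the log2 scale. Scaled to total recovered reads, 3 rose and 14 fell, against 14.2% and 26.8% of all genes under that scaling. SHC1, an adaptor of the RAS pathway, rose to 38.5 ± 0.359 RPKM with Nutlin-3, against 24.7 ± 0.209 RPKM with DMSO (SD, n = 3 each, adjusted p = 9.63e-05 by limma). PTK2B, the relative of focal adhesion kinase called PYK2, had 0.125 ± 0.00542 RPKM with Nutlin-3 and 0.0809 ± 0.00656 RPKM with DMSO. It reached the minimum mean of 0.1 RPKM only through the Nutlin-3 libraries, so its call on RPKM is not read. In the fit to reads, where it had 384 to 633 reads per library, it rose by 0.64 (voom adjusted p = 3.06e-08). The 7 rises and the 15 calls of this list still count PTK2B. CIB1, an integrin-binding calcium sensor, rose by 0.20 (adjusted p = 0.00630). Genes that fell included CRKL, an adaptor of p130Cas, which fell by 0.22 (adjusted p = 0.00923), and PAK1, a RAC-activated kinase, which fell by 0.20 (adjusted p = 0.0115). The count of calls in this list was 15 and came down to 9, 8 and 9 without Nutlin-3 replicate 1, Nutlin-3 replicate 2 or DMSO replicate 3, in fits where the calls among all genes came down to 6532, 5858 and 6573 in place of 7803.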

How the data were processed

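The 6 libraries (3 Nutlin-3, 3 DMSO) were poly(A)-selected and prepared with a stranded TruSeq kit, per the labels' protocols. The authors deposited RPKM, 1 column per library. CASAVA 1.8.2, TopHat2, edgeR and hg19 stand in the submitters' processing notes, without roles. Counter, annotation and strand setting are not stated there or in the labels. Columns were matched to samples by title.

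RPKM times the gene span in GENCODE 29 gave whole reads (within 0.01) for 89.0% of values under 50 reads, against 25.3% with merged exon length, so the deposited RPKM use the span. For 14 members whose span differs from GENCODE 29, reads came from the ratios between libraries, as the smallest counts that make the gene length a whole number. Genes averaging 0.1 RPKM or more, 19886 in all, entered limma 3.58.1 (R 4.3.3) as log2(RPKM + 0.1), with a trend of variance on mean, no covariate and adjustment over all of them by Benjamini and Hochberg. The test was also run on simulated reads with 200 changed genes, fewer than were called here. That run is not used as support for the results. Folds are ratios of mean RPKM, and log2 changes understate those of low genes. The authors' library sizes differ from the recovered totals, which bears on small changes. Alternatives were another pseudocount, filter, scaling or replicate set, a replicate term and limma voom on recovered reads (mean of at least 10). Chi-square per gene on reads was 1.63 or more within groups, so no replicates were merged. Members and lists were chosen with earlier results of these data known. Values per library are given, for each role, for up to 3 members with the largest calls and the highest one without a call, and for others by choice after seeing them. From other lists up to 3 rises and 3 falls are named, and 1 of these falls is not reported here.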

Additional observations from a re-analysis of the deposited data

How the results depend on the processing

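Of the 35 members, 26 kept their direction and their side of the threshold under every alternative tried that could test them. These were pseudocounts of 0.5 and 0.02 RPKM, no filter, a minimum mean of 0.5 RPKM (31 members tested), median-of-ratios scaling, quantile normalization, limma voom on recovered reads, a replicate block, the removal of each library and, chosen after seeing the data, scaling to total recovered reads. The others are ITGA2, ITGA4, TLN2, ITGB8, FERMT2, CAV1, ITGA1, ITGB3 and LIMS1. That last scaling put the median of all genes at -0.075 on the log2 scale, against 0.0058 as deposited. It turned the sign of 5 members that were never called under it (ITGA1 -0.012, ITGB3 -0.014, FERMT2 -0.021, LIMS1 -0.021 and CAV1 -0.091, adjusted p from 0.0872 to 0.905). The number of members called was 29 and ranged from 26 to 30, and the 25 rises ranged from 24 to 27. CAV1, never called, changed sign under quantile normalization (-0.071, adjusted p = 0.109) and ranged from -0.016 to 0.045 on the log2 scale when 1 library was left out. Same-numbered libraries deviated from their group means with correlations of -0.034, -0.023 and -0.013 across genes. The highest correlation was 0.048, between Nutlin-3 replicate 1 and DMSO replicate 2. All were close to 0, and such a check cannot tell whether same-numbered libraries were prepared together. With the replicate block 26 members were called, 24 rising and 2 falling, without ITGA2, ITGA4 and TLN2, against 14.9% and 12.9% of all genes, and the adhesion signalling list had 5 calls in place of 15 (all genes 5520 in place of 7803). Leaving out 1 library gave 8 to 11 calls in that list and 5858 to 6644 among all genes. For other integrin subunits 1 gene was called in place of 0 both without a filter and by limma voom on recovered reads. The cause of these shifts was not tested. Depth limits ITGB4, ITGB3 and ITGA10, which have 292 to 726 reads per library.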

Other observations

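Genes for the matrix proteins that integrins bind were mostly higher with Nutlin-3. Of 19 tested among 27 ligands, 12 rose and 2 fell, and the median change was 0.35 on the log2 scale, against 20.9% and 18.4% of all genes tested by limma. COL4A1, a chain of basement membrane collagen, had 2.79, 2.77 and 2.66 RPKM in the Nutlin-3 libraries, against 1.19, 1.25 and 1.34 RPKM in the DMSO libraries. FBN1, fibrillin-1, had 6.19, 6.43 and 6.21 RPKM in the Nutlin-3 libraries, against 3.31, 3.57 and 3.64 RPKM in the DMSO libraries. FN1, fibronectin, the ligand of the receptor made by ITGA5 and ITGB1, had 230.1, 236 and 226 RPKM in the Nutlin-3 libraries, against 122, 134 and 136 RPKM in the DMSO libraries. None of the 3 overlapped between groups, and the log2 changes were 1.07, 0.82 and 0.82 (adjusted p = 1.50e-04, 2.05e-04 and 2.64e-04). NID1, nidogen-1, which joins laminin to collagen IV, was lower, with 0.442, 0.426 and 0.439 RPKM in the Nutlin-3 libraries, against 0.687, 0.715 and 0.704 RPKM in the DMSO libraries (-0.58, adjusted p = 1.96e-04). TNC, tenascin C, fell by 0.13 on the log2 scale (adjusted p = 0.0270). LAMC1, the laminin gamma chain, chosen after its values were seen, rose to 4.73 RPKM with Nutlin-3, against 3.03 RPKM with DMSO.

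Of 14 tested genes of the list linked to the actin-responsive factor SRF and its coactivators, 11 rose and none fell by limma (1 lower at an unadjusted p under 0.05), with a median of 0.50, against 20.9% rising and 18.4% falling among all genes. Scaled to total recovered reads, 10 rose and MRTFB fell, against 14.2% and 26.8% of all genes. By limma voom on the reads, 12 of 15 rose and CNN1, MRTFA and MRTFB, named after their values were seen, fell, against 26.0% and 24.3% of all genes. CNN1 had only 6 to 31 reads per library and was too low to be tested on RPKM. The largest rises were those of ACTA2 (2.08), MYL9 (1.31) and TAGLN (1.10), genes of contractile fibres. SRF itself did not pass on RPKM, with 7.67 ± 0.273 RPKM with Nutlin-3 and 6.72 ± 0.497 RPKM with DMSO (SD, n = 3 each, adjusted p = 0.0624), but passed upwards in the fit to reads (voom adjusted p = 0.00117).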
